A study of Mus musculus with 2 samples.

Results

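Nr1h3, Abca1, Abcg1, Srebf1, Mylip, Pltp, Lpcat3 and Cd36 are genes of the liver X receptor (LXR) pathway and of cholesterol efflux, phospholipid handling and lipid uptake. They were chosen by symbol, and all 8 were found among the 32285 genes counted in each of 2 single-cell libraries of mouse liver. The GS-KO library came from a Glul f/f mouse, in which Glul, the glutamine synthetase (GS) gene, is floxed; it bore tumours and was given AAV8-Cre. The control library came from a tumour-bearing Glul f/f mouse given AAV8-GFP, so both mice carried the floxed alleles, tumours and an AAV8 vector. Both were used 7 weeks after infection, and the title of the series places the work in beta-catenin-mutant hepatocellular carcinoma. AAV8 is a viral vector that reaches mainly hepatocytes, and the labels name no promoter for its Cre or GFP. Cells were taken from the supernatant of a collagenase digest and enriched with magnetic beads for F4/80, a macrophage surface protein, so cell shares reflect that selection as well as the liver. With 1 mouse per group there was no replicate: no difference between the libraries was tested, and intervals are 95% intervals for counting error only, exact Poisson for levels, exact binomial (Clopper-Pearson) for shares and exact conditional binomial for ratios.

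LXRs are nuclear receptors that bind DNA as partners of the retinoid X receptor and are activated by oxidised forms of cholesterol. When a macrophage or hepatocyte is loaded with cholesterol, LXR raises transcription of genes that export it, that remodel membrane phospholipid and that make fatty acids, and of Mylip, which lowers lipoprotein uptake. Kupffer cells, the resident macrophages of the liver, are known for high LXR alpha and depend on it for their identity. Nr1h3 encodes LXR alpha. ABCA1 and ABCG1 pump cholesterol out of the cell, PLTP moves phospholipid between lipoproteins, LPCAT3 builds polyunsaturated phospholipid, and SREBP-1, from Srebf1, drives fatty acid synthesis genes. MYLIP (IDOL) is a ubiquitin ligase that lowers lipoprotein uptake, and CD36 is a receptor for oxidised lipoproteins and long-chain fatty acids.

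The GS-KO library held 1366 barcodes and 8805330 UMIs (molecules counted once each), and the control library 5074 barcodes and 64770011 UMIs, against a stated minimum of 7500 cells. After the filters, 655 GS-KO cells with a median of 4104 UMIs and 3251 control cells with a median of 7320 UMIs were kept; 1 barcode sequence occurred in both libraries and 0 among kept cells. The mitochondrial limit removed 50.8% of GS-KO barcodes and 35.5% of control barcodes. Clustering without the 8 genes gave 17 clusters. The 4 macrophage clusters held 99 GS-KO cells (15.1%) and 1367 control cells (42.0%), hepatocyte-like clusters 30 and 422 cells, the endothelial-like cluster 88 and 126, and the monocyte-like cluster 51 and 105. Clusters were named from lists of marker genes, so the markers describe the classes and do not test their names. In both libraries all 12 Kupffer and all 15 macrophage markers had UMIs in the macrophage clusters, and all 12 hepatocyte markers in hepatocyte-like cells. Control hepatocyte-like cells also had UMIs of all 12 Kupffer and all 15 macrophage markers, so a UMI alone does not tell classes apart. Glul in hepatocyte-like cells was at 102 CPM (summed UMIs of the gene per 1e+06 summed UMIs of the class) in GS-KO and 3193 CPM in control, a ratio of 0.0318 (0.0226 to 0.0435), and in macrophage clusters at 247 CPM in GS-KO and 257 CPM in control. The position of the floxed part was not in the labels, so a 3′ count of Glul does not by itself check the deletion.

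Among the members, Abca1 and Srebf1 have classical LXR response elements, and their promoters are shown because they hold the letters of that element. In GENCODE M21 on GRCm38, Abca1 lies at chr4:53030787-53159895 and Srebf1 at chr11:60199089-60222581, both on the minus strand. Some members overlap other counted genes: Nr1h3 with Gm13783 on the same strand, and Srebf1 with Rai1, Lpcat3 with Emg1 and Pltp with Ctsa on opposite strands, so reads of these pairs may not be fully told apart. RefSeq promoter windows (GRCm38.p6, 250 bases before to 50 after a start) matched 7 of the 8 genes, in 10 windows; Abcg1 was not matched. The windows were searched on both strands for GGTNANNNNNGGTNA, the form of an LXR element with direct repeats spaced by 4 bases, whose reverse complement is TNACCNNNNNTNACC. Letters were chosen from elements known in these promoters, so the matches are a description and not a finding. The motif stood in 236 of all 32851 windows (0.718%) and in 2 of the members. In Abca1 the match ran from base -67 to base -53 before the start, and in Srebf1 from base -182 to base -168 before a start inside the gene model. The 250 bases before each start are printed 5′ to 3′ on the gene's strand, minus for both, at chr4:53159896-53160145 for Abca1 and chr11:60210472-60210721 for Srebf1, with the match in capitals.
Abca1: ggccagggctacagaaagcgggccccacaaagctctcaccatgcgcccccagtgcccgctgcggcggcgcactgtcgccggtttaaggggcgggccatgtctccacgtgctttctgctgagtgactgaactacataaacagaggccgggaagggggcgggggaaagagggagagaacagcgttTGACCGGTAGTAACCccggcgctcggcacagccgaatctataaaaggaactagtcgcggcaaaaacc
Srebf1: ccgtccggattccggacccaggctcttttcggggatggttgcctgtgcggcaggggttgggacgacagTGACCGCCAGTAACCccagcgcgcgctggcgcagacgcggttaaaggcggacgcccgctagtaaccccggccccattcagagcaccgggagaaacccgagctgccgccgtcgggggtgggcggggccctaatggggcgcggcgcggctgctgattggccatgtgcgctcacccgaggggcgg
Both matches were on the opposite strand, reading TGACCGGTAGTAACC in Abca1 and TGACCGCCAGTAACC in Srebf1. Absence of these letters in the other windows says nothing about LXR at those genes.

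Nr1h3, the receptor gene (ENSMUSG00000002108, chr2:91184061-91202834, minus strand), was highest in macrophage clusters in both libraries, though hepatocyte-like cells held it too. Its level was highest in cluster 10, a macrophage-like cluster led by Mmp12, Cd207, Trem2 and Clec4f, with 377 CPM in GS-KO (323 to 436) and 423 CPM in control (409 to 437). Kupffer-like cluster 3, led by Cd209f, Fcna and Cd163, came next in each library, with 184 CPM in GS-KO and 342 CPM in control. Gpnmb- and Ms4a7-led cluster 2 had 89.1 CPM in GS-KO and 187 CPM in control, and in control it overlapped in interval with the shallow Kupffer-like cluster 6 at 239 CPM. Lymphocytes and neutrophils lay at the other end: Nr1h3 had 0 UMIs in GS-KO B-like and T-like cells, against 8.29 and 3.64 CPM in the control B-like and T-like cells. In hepatocyte-like cells it was at 41.7 CPM in GS-KO and 64.7 CPM in control.

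**Figure D1:**
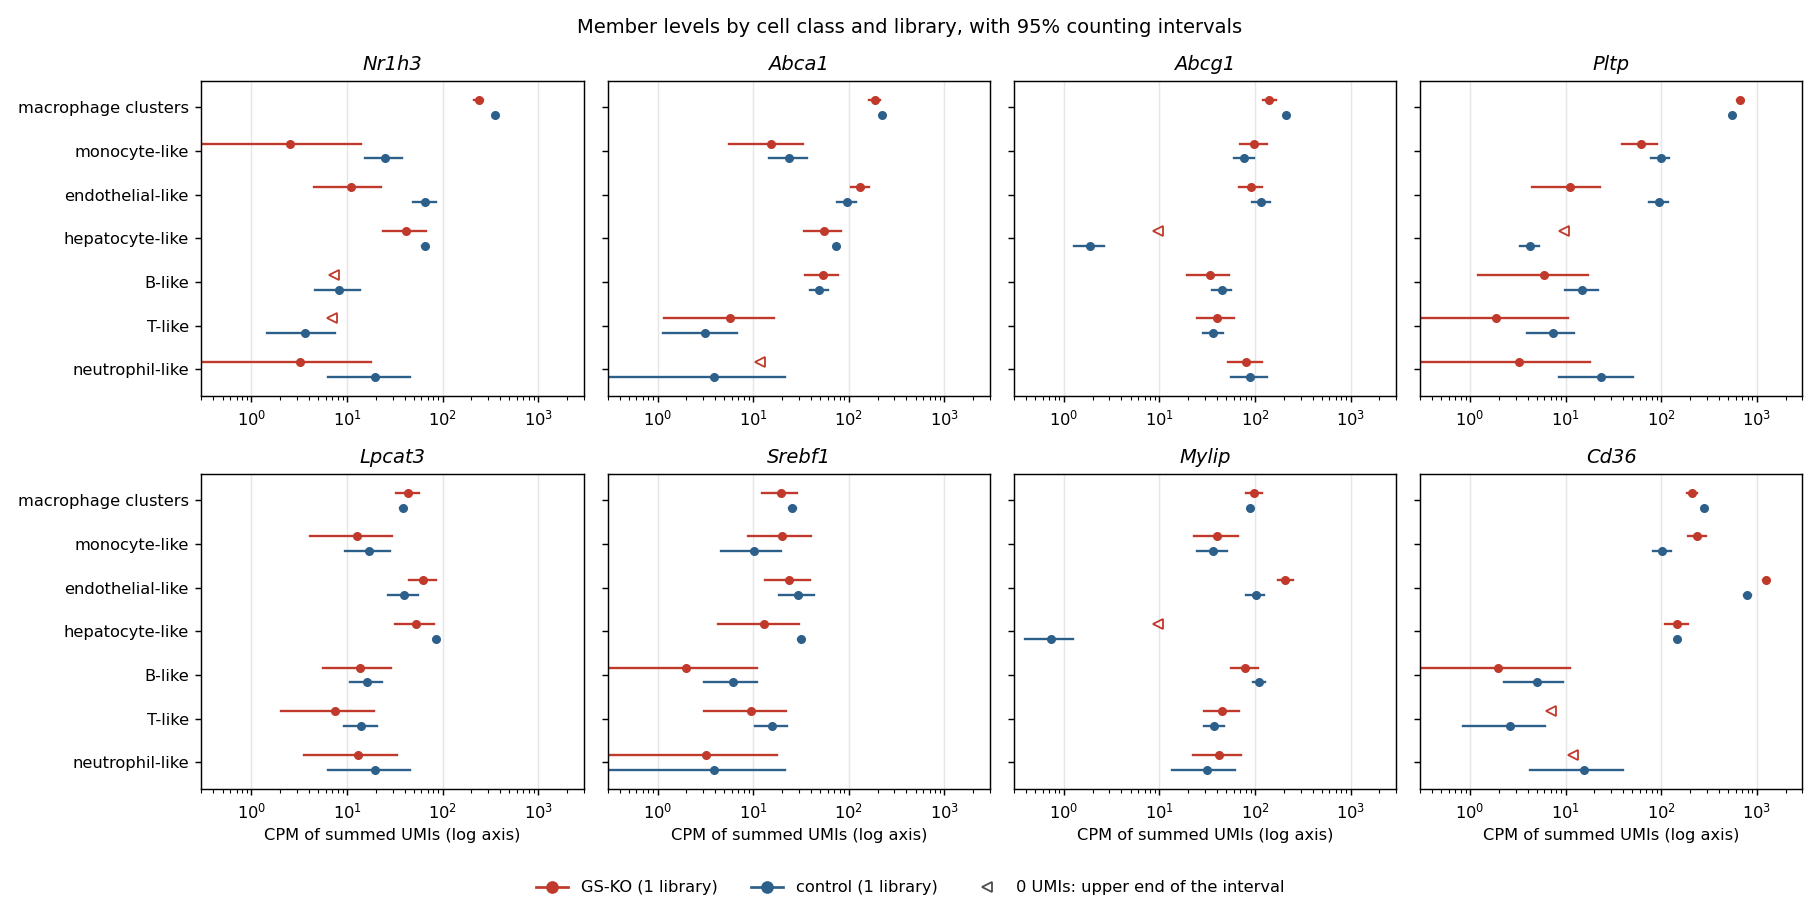
Level of each of the 8 genes by cell class, in CPM of summed UMIs on a log axis, with GS-KO in red and control in blue; bars are exact Poisson 95% intervals for counting error and each point is 1 library, and an open triangle marks the upper end of the interval where there were 0 UMIs. Nr1h3 and Pltp were highest in macrophage clusters in both libraries, Cd36 in endothelial-like cells (1256 CPM in GS-KO and 797 CPM in control).

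Both efflux pumps were at their highest levels in macrophage clusters. Abca1 was at 216 CPM in GS-KO and 244 CPM in control in cluster 10, and at 213 CPM in GS-KO and 258 CPM in control in cluster 2; the intervals of these leading clusters overlapped within each library. Outside macrophages Abca1 stood at 132 CPM in GS-KO and 95.2 CPM in control in endothelial-like cells, and at 54.7 CPM in GS-KO and 73.8 CPM in control in hepatocyte-like cells. Abcg1 (ENSMUSG00000024030, chr17:31057675-31117988, plus strand) was highest in cluster 10, at 163 CPM in GS-KO and 240 CPM in control; in GS-KO that interval (129 to 204) overlapped those of clusters 3 and 2. It differed from Abca1 at the low end. Abcg1 reached 80.5 CPM in GS-KO and 89.4 CPM in control in neutrophil-like cells, where Abca1 had 0 UMIs in GS-KO and 1 UMI in control. In hepatocyte-like cells Abcg1 had 0 UMIs in GS-KO and 1.87 CPM in control.

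Pltp (ENSMUSG00000017754, chr2:164839518-164857711, minus strand) was, like Nr1h3, highest in macrophage clusters, but it was far lower than Nr1h3 in control hepatocyte-like cells. It was at 826 CPM in GS-KO and 673 CPM in control in cluster 10, and at 334 CPM or more in each of the other 3 macrophage clusters of either library. In hepatocyte-like cells Pltp had 0 UMIs in GS-KO and 4.24 CPM in control. Lpcat3 (ENSMUSG00000004270, chr6:124663027-124704418, plus strand) was instead highest in the deep hepatocyte-like cluster 14 in control, at 87.0 CPM, where GS-KO had 48.5 CPM. In GS-KO its order was led by endothelial-like cells at 61.9 CPM, with an interval that overlapped those of cluster 10 and cluster 14. Srebf1 (ENSMUSG00000020538) was low in all classes, with at most 28.1 CPM in any GS-KO cluster ranked and 40.3 CPM in any control cluster ranked, which was the Mup-rich hepatocyte-like cluster 7.

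Mylip (ENSMUSG00000038175, chr13:45389742-45412022, plus strand) was highest in endothelial-like cells in GS-KO, at 208 CPM. In control it was at 101 CPM in endothelial-like cells and 111 CPM in B-like cells, values whose intervals overlapped. Cd36 (ENSMUSG00000002944, chr5:17781690-17888801, minus strand) had its highest level in endothelial-like cells in both libraries, at 1256 CPM in GS-KO (1170 to 1347) and 797 CPM in control (737 to 861). Cluster 10 was second, at 294 CPM in GS-KO and 405 CPM in control, and monocyte-like cells in GS-KO overlapped it at 238 CPM. B-like and T-like cells had at most 4.97 CPM of Cd36 in either library.

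Across macrophages, the receptor and both pumps were lower in GS-KO, and Pltp was higher. Summed over the 4 clusters, Nr1h3 was at 238 CPM in GS-KO and 351 CPM in control, a ratio of 0.676 (0.599 to 0.762). Abcg1 was at 141 CPM in GS-KO and 209 CPM in control, a ratio of 0.675 (0.575 to 0.787), and Abca1 at 188 CPM in GS-KO and 224 CPM in control, a ratio of 0.839 (0.731 to 0.960). Pltp went the other way, with 673 CPM in GS-KO and 545 CPM in control, a ratio of 1.24 (1.15 to 1.33). Ctsa, an overlapping gene on the opposite strand whose reads could be mixed with those of Pltp if counting ignored strand, was at 634 CPM in GS-KO and 647 CPM in control. Cd36 was at 211 CPM in GS-KO and 278 CPM in control, a ratio of 0.757 (0.665 to 0.859). For the other 3 genes the ratio's interval included 1: Srebf1 had 19.3 CPM in GS-KO and 25.7 CPM in control, Lpcat3 43.6 CPM in GS-KO and 38.6 CPM in control, and Mylip 98.2 CPM in GS-KO and 89.5 CPM in control.

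None of the 8 genes was at least 1.5-fold apart in the pooled macrophage clusters. Over all 11601 genes with at least 20 UMIs in both libraries together, 15.2% were at least 1.5-fold lower in GS-KO and 9.71% at least 1.5-fold higher, so the members did not exceed that background in either direction. With at least 5 UMIs expected in the smaller sum, the count of members was the same and the background was 13.5% lower and 5.99% higher of 9227 genes. The median log2 ratio of the 8 genes was -0.33, beside -0.08 over all genes (-0.04 with genes at 0 GS-KO UMIs set to 3 counts). Nr1h3 and Abcg1 lay just short of the 1.5-fold line and passed it where each cell counted equally, where cells were thinned to the same number of UMIs, where the 4 clusters had equal weight and where the cell richest in each gene was left out. Srebf1 passed it where each cell or each cluster counted equally. The all-gene median log2 ratio moved as well, from -0.08 to -0.20 where each cell counted equally and -0.11 where thinned. It was -0.27 without the richest cell and -0.07 with equal cluster weights. The share of all genes past 1.5-fold was not counted under these settings, so the crossings are not read as a result about the members. Nr1h3 ratios over all alternatives spanned 0.631 to 0.753 and Abcg1 ratios 0.608 to 0.705. In the macrophage clusters the 12 hepatocyte markers summed to 1074 CPM in GS-KO (11 with UMIs, Cps1 at 0) and 1193 CPM in control (12 with UMIs), and the 11 endothelial markers to 158 CPM in GS-KO (9 with UMIs, Kdr and Oit3 at 0) and 221 CPM in control (11 with UMIs). The macrophages' own C1qa, C1qb and C1qc summed to 22089 CPM in GS-KO and 20894 CPM in control.

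**Figure D2:**
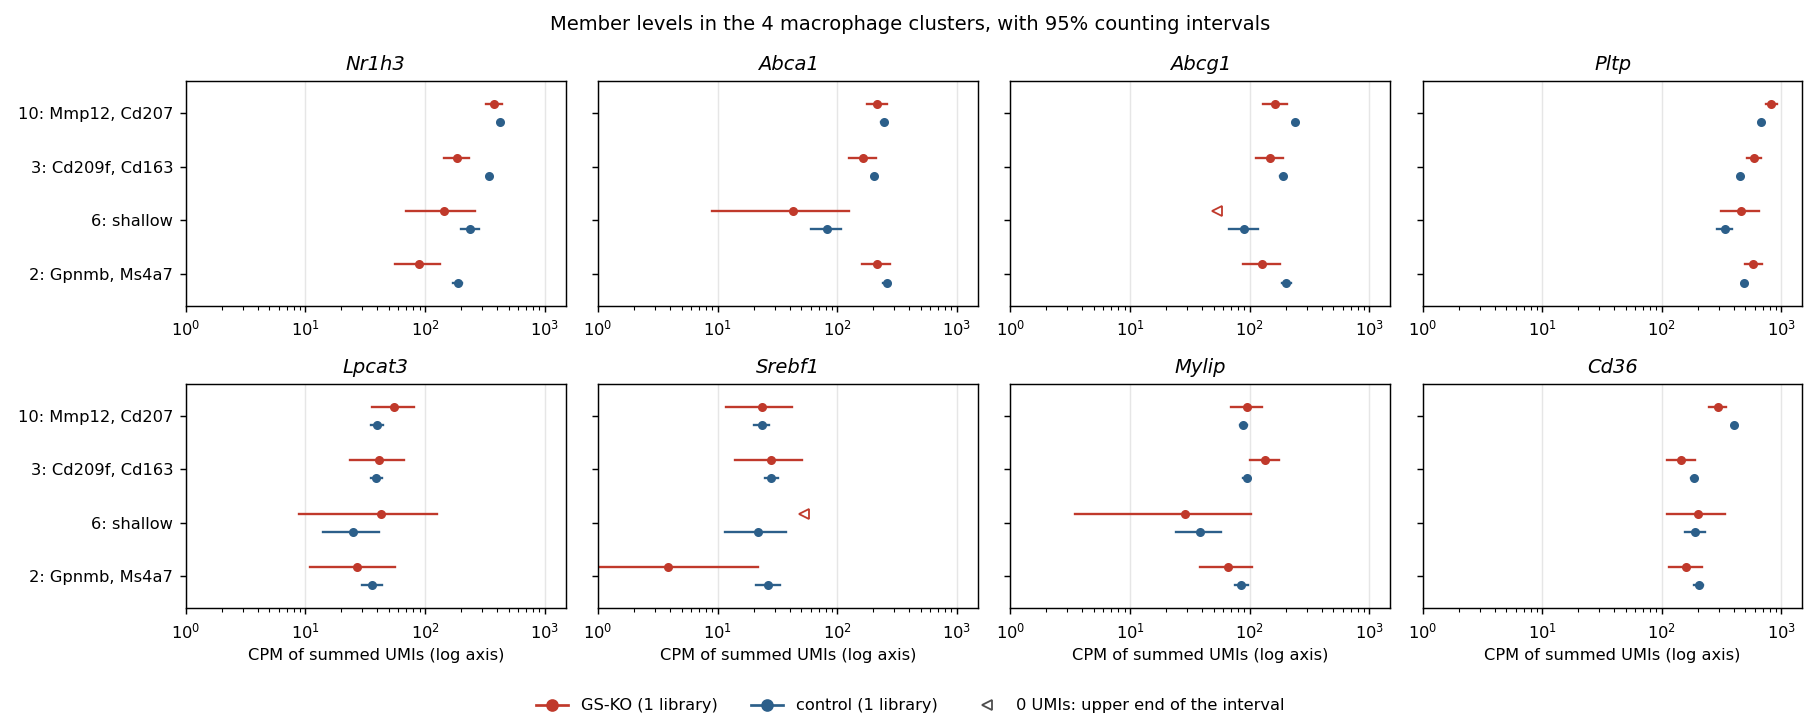
Level of each of the 8 genes in the 4 macrophage clusters, in CPM of summed UMIs, GS-KO in red and control in blue, with exact Poisson 95% intervals. Nr1h3 was lower in GS-KO in each cluster, with 377 against 423 CPM in cluster 10 and 184 against 342 CPM in cluster 3, and Pltp was higher in GS-KO in each.

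The direction of 4 genes was shared by the macrophage clusters, though not its size. Nr1h3, Abca1 and Abcg1 were lower in GS-KO in 4 of 4 clusters, and Pltp higher in 4 of 4. Kupffer-like cluster 3 had an Nr1h3 ratio of 0.539 (0.420 to 0.681), cluster 2 had 0.475 (0.299 to 0.721), and cluster 10 had 0.891 (0.763 to 1.04). The interval of the Mmp12- and Cd207-led cells, where Nr1h3 was highest, did not overlap those of clusters 3 and 2; the difference between clusters was not tested. Abcg1 had a ratio of 0.680 (0.535 to 0.854) in cluster 10; cluster 2 had 0.628 (0.428 to 0.892) and cluster 3 had 0.786 (0.594 to 1.02), and the shallow cluster 6 had 0 UMIs in GS-KO and 90.3 CPM in control. Abca1 ratios had intervals that included 1 in each of the 4 clusters. Cd36 was lower in GS-KO in clusters 10, 3 and 2 and at 201 CPM in GS-KO and 191 CPM in control in cluster 6. Mylip split, with 136 CPM in GS-KO and 95.1 CPM in control in cluster 3, a ratio of 1.42 (1.06 to 1.88), and 65.8 CPM in GS-KO and 85.2 CPM in control in cluster 2. Srebf1 in cluster 2 rested on 1 GS-KO UMI. Cluster 10 held 26 GS-KO and 407 control cells, cluster 3 held 23 and 536, cluster 6 held 30 and 267, and cluster 2 held 20 and 157, so GS-KO values came from few cells.

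The share of macrophage-cluster cells with an Nr1h3 UMI was 60.6% in GS-KO and 75.9% in control, at median depths of 12318 and 15075 UMIs. After thinning each cell to 1000 UMIs it was 17.4% in GS-KO (10.1 to 27.1, 86 cells) and 26.8% in control (24.4 to 29.3, 1279 cells), so the counting intervals overlapped. T-like cells, which should lack the gene, had a thinned Nr1h3 share of 0% in GS-KO (up to 4.62%) and 0.368% in control, at unthinned median depths of 6240 and 5696 UMIs. For Pltp the thinned macrophage shares were 37.2% in GS-KO and 35.3% in control. The Pltp shares differed by less than counting error, unlike the summed level.

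**Figure D3:**
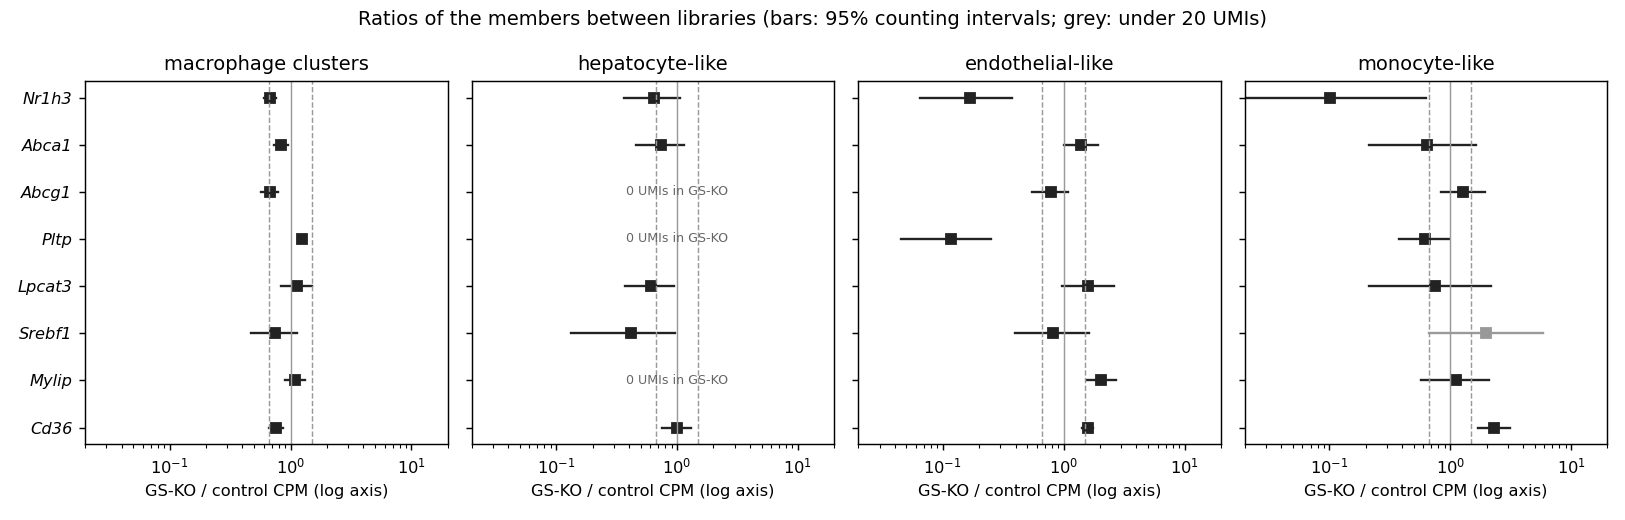
Ratio of GS-KO to control CPM for each of the 8 genes in macrophage clusters and hepatocyte-like, endothelial-like and monocyte-like cells, on a log axis; squares are ratios, bars exact 95% counting intervals, grey marks under 20 UMIs, the solid line equal levels and the dashed lines a 1.5-fold difference. Nr1h3 ratios lie below 1 in macrophage clusters (0.676) and endothelial-like cells (0.168), and Cd36 ratios above 1 in endothelial-like (1.58) and monocyte-like cells (2.31).

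In hepatocyte-like cells, the main target of AAV8, 7 of the 8 genes had at least 20 UMIs. Of these 7, 3 (42.9%) were at least 1.5-fold lower in GS-KO and 0 were higher, on few UMIs. Abcg1 and Pltp, with 0 UMIs in GS-KO, could not be called. Tumour cells and hepatocytes were not told apart in this class. Lpcat3 was at 52.1 CPM in GS-KO (20 UMIs) and 85.2 CPM in control, a ratio of 0.611 (0.372 to 0.948). Srebf1 was at 13.03 CPM in GS-KO (5 UMIs) and 31.6 CPM in control, a ratio of 0.412 (0.133 to 0.967). Nr1h3 was at 41.7 CPM in GS-KO (16 UMIs) and 64.7 CPM in control, a ratio of 0.644 whose interval, 0.367 to 1.05, included 1. Of the 10819 genes with at least 20 UMIs, 16.7% were at least 1.5-fold lower and 22.0% at least 1.5-fold higher; with at least 5 UMIs expected in the smaller sum, 3 of 5 members were lower, beside 18.1% lower and 17.1% higher of 5500 genes. The Nr1h3 value was not stable: the mean over cells gave a log2 ratio of 0.19, with GS-KO higher. Lpcat3 ratios were 0.435 to 0.809 and Srebf1 ratios 0.253 to 0.722 over the alternatives that gave one; thinning to 1000 UMIs left too few UMIs for either gene.

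Abca1 in hepatocyte-like cells had a ratio of 0.741 (0.457 to 1.14), which turned to 2.09, past 1.5-fold higher in GS-KO, when cells were thinned to 1000 UMIs. The unthinned ratio rested on 21 GS-KO UMIs, a number that thinning can only lower, so the change of side is not read as a result. Cd36 was at 146 CPM in both libraries, a ratio of 1.00 (0.755 to 1.31), although 42.9% of its GS-KO UMIs came from 1 cell. Abcg1, Mylip and Pltp had 0 UMIs in GS-KO hepatocyte-like cells, where 3 counts would be 7.82 CPM, and at most 4.24 CPM in control, so no ratio is given. The 2 hepatocyte-like clusters differed in Cd36 as in Glul. In control, Cd36 was at 152 CPM in cluster 14 and 7.32 CPM in the Mup-rich cluster 7, and Glul at 3342 CPM in cluster 14 and 121 CPM in cluster 7. In GS-KO, Cd36 was at 170 CPM in cluster 14 and had 0 UMIs in the 6 cells of cluster 7. The hepatocyte-like cells differed in depth, with a median of 6369 UMIs in GS-KO and 21090 UMIs in control. Macrophage markers there summed to 39.1 CPM in GS-KO (6 of 15 with UMIs, Adgre1, Csf1r and Cd68 at 0) and 247 CPM in control (15 of 15), and their part in the Nr1h3 and Abca1 values was not tested.

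In endothelial-like cells Cd36 and Mylip were higher in GS-KO, and Nr1h3 and Pltp lower. Of the 8 genes, 3 were at least 1.5-fold higher in GS-KO and 2 at least 1.5-fold lower, beside 13.5% higher and 15.9% lower of 7647 genes. Cd36 was at 1256 CPM in GS-KO and 797 CPM in control, a ratio of 1.58 (1.42 to 1.75). Mylip was at 208 CPM in GS-KO and 101 CPM in control, a ratio of 2.05 (1.55 to 2.73), and stayed between 2.01 and 2.31 over the alternatives. Lpcat3 was at 61.9 CPM in GS-KO and 39.1 CPM in control, a ratio of 1.58 with an interval of 0.967 to 2.61 that included 1. So the counting intervals of the fatty acid receptor Cd36 and of the ubiquitin ligase Mylip lay above 1, and that of Lpcat3 did not. The thinned share of cells with a Cd36 UMI was 50.6% in GS-KO (39.0 to 62.2) and 45.2% in control (35.9 to 54.8), which overlapped. Stab2 and Clec4g, genes of liver sinusoidal endothelium, were at 871 and 1864 CPM in GS-KO and at 615 and 2048 CPM in control.

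The 2 lower genes in endothelial-like cells, Nr1h3 and Pltp, had their highest levels in macrophage clusters. Nr1h3 was at 11.1 CPM in GS-KO (7 UMIs) and 65.9 CPM in control (54 UMIs), a ratio of 0.168 (0.0647 to 0.371). Pltp was at 11.1 CPM in GS-KO (7 UMIs) and 95.2 CPM in control (78 UMIs), a ratio of 0.117 (0.0454 to 0.252). Macrophage RNA in the same cells moved the same way: C1qa, C1qb and C1qc summed to 297 CPM in GS-KO and 4202 CPM in control. The 12 Kupffer markers summed to 623 CPM in GS-KO (10 with UMIs, Marco and Cd163 at 0) and 3652 CPM in control (12 with UMIs), and the 15 macrophage markers to 2261 CPM in GS-KO (11 with UMIs, Cx3cr1, Trem2, Gpnmb and Ms4a7 at 0) and 7510 CPM in control (15 with UMIs). Per 100 C1q UMIs, endothelial-like cells had 3.74 Nr1h3 UMIs in GS-KO and 1.57 in control, and macrophage clusters 1.08 in GS-KO and 1.68 in control. For Pltp the endothelial-like values were 3.74 per 100 C1q UMIs in GS-KO and 2.27 in control, and the macrophage values 3.05 in GS-KO and 2.61 in control. In control the ratios of both genes to C1q in endothelial-like cells were close to those in macrophage clusters. In GS-KO, on 7 UMIs of each gene, Nr1h3 was at 3.74 beside 1.08 and Pltp at 3.74 beside 3.05. The part of macrophage RNA in the 2 lower values was not tested. Cd36 and Mylip were higher in the library with less C1q, and a link of either to C1q was not tested.

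**Figure D4:**
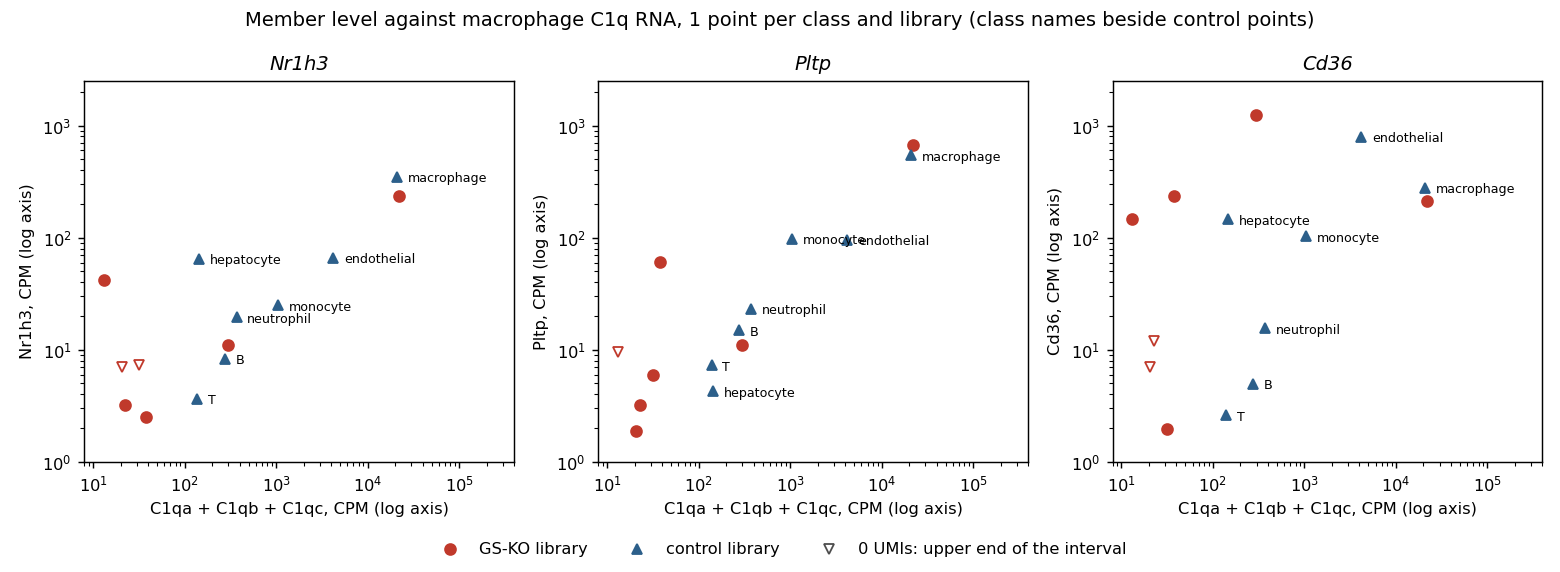
Nr1h3, Pltp and Cd36 levels (CPM, log axis) against the summed level of C1qa, C1qb and C1qc (CPM, log axis) in 7 cell classes, GS-KO in red and control in blue, each point 1 class of 1 library. Control endothelial-like cells lie at 4202 CPM of C1q and GS-KO endothelial-like cells at 297 CPM; Cd36 in endothelial-like cells stands above the other classes at both C1q levels.

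In monocyte-like cells Cd36 was at 238 CPM in GS-KO (94 UMIs) and 103 CPM in control (91 UMIs), a ratio of 2.31 (1.71 to 3.12) that lay between 2.02 and 3.90 over the alternatives. Of 7 members with at least 20 UMIs, Cd36 was the 1 at least 1.5-fold higher there, and Nr1h3, Abca1 and Pltp were at least 1.5-fold lower, beside 11.6% higher and 16.1% lower of 6173 genes. Abca1 had 6 UMIs in GS-KO and 21 in control, and the interval of its log2 ratio, -2.24 to 0.71, included equal levels. A single cell gave 19.1% of the GS-KO Cd36 UMIs, and the thinned share of cells was 18.8% in GS-KO (8.95 to 32.6) and 9.71% in control (4.75 to 17.1). Ly6c2, which marks classical monocytes, was at 273 CPM in GS-KO and 708 CPM in control, and Ace, which marks patrolling monocytes, at 452 CPM in GS-KO and 262 CPM in control. These 2 genes were picked after values were seen, from 13 monocyte markers that summed to 9003 CPM in GS-KO and 9607 CPM in control. Whether the make-up of the cluster differed between libraries, and its part in the Cd36 value, was not tested. Pltp was at 60.7 CPM in GS-KO and 98.3 CPM in control, a ratio of 0.617 (0.376 to 0.979), and Nr1h3 had 1 UMI in GS-KO and 22 in control, beside C1q sums of 37.9 CPM in GS-KO and 1045 CPM in control. The 12 Kupffer markers summed to 30.3 CPM in GS-KO (6 with UMIs, Vsig4, Timd4, Marco, Cd163, Fcna and Kcna2 at 0) and 444 CPM in control (11 with UMIs).

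Lymphocytes and neutrophils added little. Pltp was the 1 member at least 1.5-fold lower in B-like cells, with 3 UMIs in GS-KO, beside 26.2% lower and 6.57% higher of 7167 genes. Markers of other cells were lower there too: the 12 Kupffer markers summed to 123 CPM in GS-KO (5 with UMIs, Timd4 and Marco among those at 0) and 296 CPM in control (12 with UMIs), the 12 hepatocyte markers to 130 CPM in GS-KO (10 with UMIs) and 868 CPM in control (12 with UMIs), and C1q to 31.6 CPM in GS-KO and 274 CPM in control. Their part in the Pltp value was not tested. Mylip was at 79.0 CPM in GS-KO and 111 CPM in control, a ratio of 0.712 (0.494 to 1.00). In T-like cells Srebf1 and Lpcat3 were at least 1.5-fold lower on 5 and 4 GS-KO UMIs, beside 28.5% lower and 7.23% higher of 7180 genes, and Abcg1 was at 39.5 CPM in GS-KO and 36.4 CPM in control. In neutrophil-like cells the 2 members with at least 20 UMIs, Abcg1 and Mylip, were within 1.5-fold, beside 21.0% lower and 13.2% higher of 2918 genes.

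The other genes of the pathway were read from 5 lists of 90 genes in all, covering LXR partners, other LXR targets, cholesterol synthesis and uptake, cholesterol transport and storage, and PPAR genes of fatty acid handling. In macrophage clusters 19 of the 79 list genes with at least 20 UMIs (24.1%) were at least 1.5-fold lower in GS-KO and 2 (2.53%) higher, beside 15.2% lower and 9.71% higher over all genes. Of 19 other LXR targets with at least 20 UMIs, 7 were lower and 1 higher, but the most abundant did not share a direction. Apoe, the apolipoprotein that carries exported cholesterol, was at 42826 CPM in GS-KO and 35519 CPM in control, and Cd5l, a secreted Kupffer protein, at 2965 CPM in GS-KO and 3176 CPM in control. Lpl, lipoprotein lipase, was at 1151 CPM in GS-KO and 1855 CPM in control, a ratio of 0.620, and Apoc2, its cofactor, at 115 CPM in GS-KO and 65.0 CPM in control, a ratio of 1.77. The median log2 ratio of the list was -0.34 and moved to -0.10 over the 17 genes with at least 5 UMIs expected in the smaller sum, near the all-gene -0.08.

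Cholesterol synthesis and uptake genes were 6 lower (28.6%) and 0 higher of 21 in macrophage clusters, where 15.2% of all genes were lower and 9.71% higher. Of the genes with most UMIs in that list, Fdps, which makes farnesyl pyrophosphate, was at 41.1 CPM in GS-KO and 47.6 CPM in control, and Insig1, a sterol-sensing brake on the pathway, at 55.4 CPM in GS-KO and 45.2 CPM in control, both within 1.5-fold. Of 15 transport and storage genes 2 were lower (13.3%, near the share of all genes) and 0 higher: Apoa1, a hepatocyte gene, at 36.1 CPM in GS-KO and 58.7 CPM in control, and Gramd1a, on 5 GS-KO UMIs. The 3 genes of that list with most UMIs were within 1.5-fold: Npc2, Lrp1 and Lipa, the lysosomal lipase that frees cholesterol from its esters, at 669 CPM in GS-KO and 995 CPM in control. Of 15 PPAR genes 4 were lower (26.7%) and 0 higher, with Fabp5, a fatty acid carrier, at 548 CPM in GS-KO and 856 CPM in control, and Plin2, which coats lipid droplets, at 321 CPM in GS-KO and 268 CPM in control. Of 9 partners 0 were lower and 1 higher (11.1%, near the share of all genes): Gps2, a co-repressor subunit, at 74.7 CPM in GS-KO and 41.1 CPM in control. Nr1h2, the gene of LXR beta, was at 61.3 CPM in GS-KO and 51.3 CPM in control, and Rxra, the partner receptor, at 119 and 118 CPM, so their ratios were 1.19 and 1.01; their difference from the Nr1h3 ratio was not tested.

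**Figure D5:**
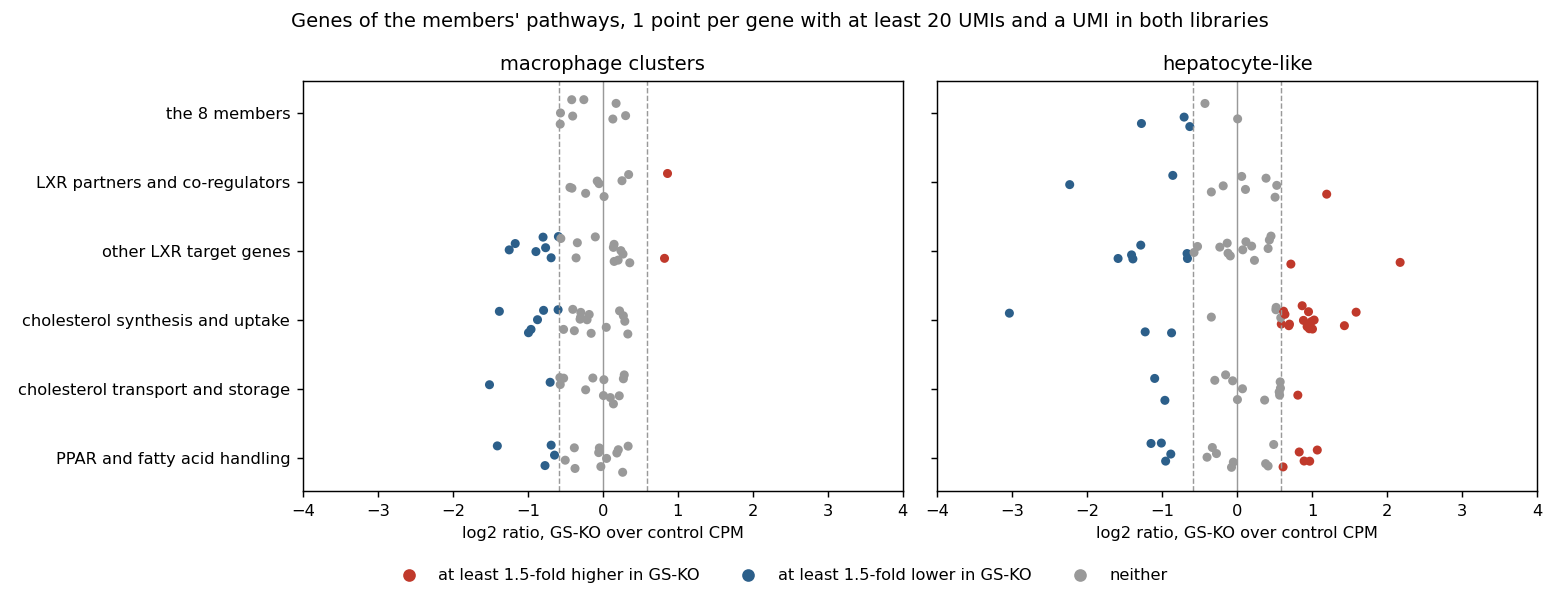
GS-KO over control, as a log2 ratio of CPM, for the genes of the 8 members and 5 pathway lists with at least 20 UMIs and a UMI in both libraries, in macrophage clusters (left) and hepatocyte-like cells (right); each point is 1 gene, red if at least 1.5-fold higher in GS-KO, blue if lower and grey if neither, and dashed lines mark 1.5-fold. In hepatocyte-like cells the cholesterol synthesis and uptake genes had a median of 0.69, beside -0.02 over all genes.

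In hepatocyte-like cells the lists split. Of 22 cholesterol synthesis and uptake genes 15 (68.2%) were at least 1.5-fold higher in GS-KO and 3 (13.6%) lower, beside 22.0% higher and 16.7% lower over all genes, with a median log2 ratio of 0.69, beside -0.02 over all genes (0.23 with genes at 0 GS-KO UMIs set to 3 counts); over the 18 with at least 5 UMIs expected in the smaller sum, 11 were higher, 3 lower and the median was 0.63. Idi1, an isomerase of the pathway, was at 151 CPM in GS-KO and 56.2 CPM in control, a ratio of 2.69 (2.03 to 3.51). Hmgcs1, which acts just before the rate-limiting step, was at 242 CPM in GS-KO and 122 CPM in control, and Fdps at 268 CPM in GS-KO and 167 CPM in control. Over all 5 lists, 24 genes were higher and 18 lower. Thinned to 1000 UMIs, 7 were higher and 8 lower, and without the richest cell of each gene 4 were higher and 37 lower. Thinning leaves fewer UMIs, so fewer genes can reach the UMI minimum. Leaving out the richest cell moved the all-gene median log2 ratio to -0.77. These counts cover all 5 lists, so they do not show whether the count of 15 depends on cells.

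Other LXR targets in hepatocyte-like cells were 7 lower (30.4%) and 2 higher (8.7%) of 23, beside 16.7% lower and 22.0% higher over all genes. Apoe was at 14338 CPM in GS-KO and 20718 CPM in control. Apoc1 and Apoc4, apolipoproteins of the same gene cluster, were within 1.5-fold, with Apoc1 at 13429 CPM in GS-KO and 14637 CPM in control. Of 10 partners 2 were lower and 1 higher, and of 16 transport and storage genes 2 were lower and 1 higher, with Lrp1 at 62.5 CPM in GS-KO and 134 CPM in control and Apoa1, the apolipoprotein that accepts cholesterol from ABCA1, at 5726 CPM in GS-KO and 5721 CPM in control. Of 18 PPAR genes 4 were lower (22.2%) and 5 higher (27.8%), near the shares of all genes. Plin2 was at 159 CPM in GS-KO and 294 CPM in control, and Acadl, of fatty acid oxidation, at 315 CPM in GS-KO and 207 CPM in control. Plin2 thus stood on opposite sides in the 2 cell types, a difference that was not tested.

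The 8 genes did not form 1 pattern across cell types. Over the 16 clusters with at least 20 cells, libraries pooled, Pearson's r of log2(CPM + 10) was highest for Nr1h3 with Abca1 (0.871), Abcg1 with Mylip (0.845) and Abcg1 with Pltp (0.821), and lowest for Mylip with Lpcat3 (-0.368). These are descriptions over clusters that share libraries and depth. Among 10799 genes the pattern nearest to Nr1h3 was that of Abcc3 (r = 0.989), followed by Pdgfc and Tmem141. Nearest to Pltp were Slc7a8 (0.992), Tmem86a and Adgre1, the gene of the F4/80 protein used to enrich the cells. Nearest to Abca1 were Rufy3 (0.940), Vav2 and Dnase2a, and to Abcg1 Atp8a1 (0.970), P4ha1 and Ano6. Srebf1 was nearest to Txndc15 (0.951), Rmdn3 and Sil1, and Lpcat3 to Nr2f6 (0.931), Creld1 and Sec24d. Mylip was nearest to Bbx (0.967), Hist3h2a and Fam168b, and Cd36 to Sumf1 (0.959), Iqsec2 and Anxa5.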

How the data were processed

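The deposited files hold raw UMI count matrices, 1 per library, which the authors made with Cell Ranger and the mm10 genome, per the submitters' processing notes; the matrix header carries software version 3.1.0, per the file headers. The labels name a 3PrimeV2 kit and in 1 place a single-nucleus assay, and which applies was not settled. Whether counting used strand is not given in the sources used here. Kept barcodes had 500 or more UMIs, 200 or more genes and no more than 20% of UMIs from mitochondrial genes, Scrublet doublets were removed (7 in GS-KO, 24 in control), and cells were clustered with Leiden (scanpy 1.11.5, resolution 1, 30 components, 2000 variable genes without the 8 members) and named from marker lists. UMIs were summed per library and class and given as CPM. A gene was called at a ratio of 1.5-fold with at least 20 UMIs over both libraries; no test was run, since each group had 1 mouse. The limit beside a sum of 0 UMIs was 3 counts, or the upper end of the exact interval where so named. The code for intervals and ratios was run on simulated Poisson counts with known folds. The intervals assume such counts, so the run does not cover spread between cells or mice. Further software was matplotlib 3.10.9, igraph 0.11.9, scikit-learn 1.9.0, anndata 0.12.19, pandas 2.3.3, scipy 1.17.1, numpy 2.4.6 and Python 3.11.15. Members, marker lists and pathway lists were chosen with earlier results of these data known. Named list genes were the 3 with most UMIs per list and the gene in each direction whose interval bound nearest 1 was farthest from 1; likeness genes were the 3 with the highest r. Some list genes that the rule names are not reported here. Stab2, Clec4g, Ly6c2, Ace and Ctsa were added by choice after values were seen. Alternatives covered the mitochondrial limit, the UMI minimum, the total used for scaling, cell weights, thinning, Leiden resolution, use of the members in clustering, the richest cell, the UMI minimum per gene and a 2-fold call. A run without the shallow cluster 6 and a rule of 5 UMIs expected in the smaller sum were chosen after seeing the data.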

Additional observations from a re-analysis of the deposited data

Results flagged for a closer look

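Mylip was seen in barcodes that the comparisons do not use. In the 694 GS-KO barcodes over the mitochondrial limit it had 18 UMIs, or 42.9 CPM of non-mitochondrial UMIs (25.4 to 67.7), against 55 UMIs, or 16.5 CPM (12.4 to 21.4), in the 1799 such control barcodes. Its interval in GS-KO lay above that in control, in data outside the main measurement. In the same barcodes 4 other members had lower intervals in GS-KO that did not overlap those of control: Nr1h3 at 52.4 CPM in GS-KO and 114 CPM in control, Abca1 at 59.5 CPM in GS-KO and 137 CPM in control, Srebf1 at 11.9 CPM in GS-KO and 48.5 CPM in control, and Lpcat3 at 52.4 CPM in GS-KO and 93.7 CPM in control. No cause was tested, and such barcodes were of no named cell type.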

How the results depend on the processing

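No paired analysis was possible because each group had 1 library and the labels give no replicate numbers. Of 448 values of 39 ratios under 14 alternatives, 434 lay within the counting interval of the reported ratio, 13 outside it, 20 had the opposite sign and 1 called value reversed: Nr1h3 in hepatocyte-like cells, whose log2 ratio was 0.19 with each cell weighted equally, a scaling that moved the all-gene median to -0.27 there, against -0.02, and to -0.20 in macrophage clusters, against -0.08. The cause was not tested. A 2-fold call, the minimum of 50 UMIs and the rule of 5 UMIs expected change no ratio. Their values lay within the interval by construction and say nothing on stability. Members lower in macrophage clusters were 3 as a mean over cells, 2 when thinned, 2 without the richest cell and 3 with equal cluster weights, in place of 0. In hepatocyte-like cells lower members were 1 when thinned, 5 without the richest cell and 1 at 2-fold, in place of 3, and higher members 1 when thinned (Abca1) and 1 at resolution 0.5, in place of 0. In the other classes lower members were 5 as a mean over cells, 3 when thinned, 3 with at least 50 UMIs and 4 at 2-fold, in place of 8, and higher members 2 at 2-fold, in place of 4. List genes higher in macrophage clusters were 1 at a 10% mitochondrial limit, 6 as a mean over cells, 6 when thinned, 1 with the members used in clustering, 1 without the richest cell and 0 at 2-fold, in place of 2, and lower ones 5 at 2-fold, in place of 19. In hepatocyte-like cells lower list genes were 8 when thinned, 37 without the richest cell and 11 at 2-fold, in place of 18, and higher ones 7 when thinned, 4 without the richest cell and 7 at 2-fold, in place of 24. Leaving out the richest cell removes more from the smaller GS-KO sums by its construction. It moved the all-gene median log2 ratio to -0.77 in hepatocyte-like cells and -0.27 in macrophage clusters. The share of all genes past the line was not counted for the settings of these counts. The counts are therefore not read as results about the members or lists. Depth limited the GS-KO hepatocyte-like values, which came from 30 cells.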

Other observations

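Dividing cells formed 2 clusters that could not be named from the markers, and they held macrophage and non-macrophage patterns of the 8 genes. Cluster 13, led by Top2a and Mki67, had 11 GS-KO and 79 control cells. Its Nr1h3 level was 22.4 CPM in GS-KO and 293 CPM in control, Pltp 6.39 CPM in GS-KO and 390 CPM in control, and Cd36 9.59 CPM in GS-KO and 168 CPM in control, beside summed C1qa, C1qb and C1qc levels of 674 CPM in GS-KO and 17211 CPM in control. The dividing cells of the 2 libraries thus differed in macrophage RNA, and no ratio is read from them. Cluster 16, led by Ube2c and Cdc20, held 1 GS-KO and 108 control cells. In control it had 70.0 CPM of Nr1h3, 4.73 CPM of Pltp, 1.04 CPM of Abcg1 and 134 CPM of C1q, values near those of the control hepatocyte-like cells. Lpcat3 at 55.3 CPM, Cd36 at 126 CPM and Abca1 at 54.6 CPM were lower than in control cluster 14, at 87.0, 152 and 73.1 CPM, with intervals that did not overlap.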
